A study of Homo sapiens with 8 samples.

Results

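DNA repair and checkpoint genes were followed as a set of 41 genes among the 60332 genes of the expression table. They were chosen by symbol for their pathway, with earlier results of these data known. They comprise 10 genes of homologous recombination, 6 of end resection and processing, 9 of the Fanconi pathway, 3 of mismatch repair, 5 of end joining, 7 of the damage checkpoint and PARP1. Each of the 41 symbols matched 1 row, and all 41 genes were among the 15372 genes expressed highly enough to be tested, which means at least 1 FPKM in at least 2 libraries. FPKM are fragments scaled to transcript length and library size, so levels can be set side by side between genes.

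Gene expression was measured by RNA-seq in SK-N-MC, an established Ewing sarcoma cell line, in 8 libraries that fall into 4 groups of 2. All cells had been infected with a lentivirus for dCas9-KRAB, a dead Cas9 fused to a repressor domain, and selected with puromycin. Control cells, which the authors call parental, carried the empty vector, and eKD1 and eKD2 cells carried different guides to the GGAA-repeat enhancer of LOXHD1. The authors describe the eKD1 and eKD2 cells as polyclonal pools. Hypoxia was 1% oxygen for 16 h. Libraries of control cells came from normoxia and from hypoxia, those of eKD1 and eKD2 cells from hypoxia alone.

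Cells mend broken DNA in several ways. Homologous recombination copies the sister chromatid after the broken ends have been resected, whereas end joining ligates the ends directly. The Fanconi pathway unhooks crosslinks between strands, mismatch repair removes replication errors, and the kinases ATM and ATR signal damage to the checkpoint kinases CHEK2 and CHEK1. Lower expression of some homologous recombination and mismatch repair genes has been described in hypoxic tumour cells, and many repair genes are transcribed in S phase under E2F control.

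LOXHD1, the gene of the targeted enhancer, was at 156 and 169 FPKM in normoxic control cells. In hypoxia its 2 libraries were at 93.0 and 91.1 FPKM for control cells, at 17.3 and 15.0 FPKM for eKD1 cells and at 11.7 and 11.8 FPKM for eKD2 cells. CA9, a marker of hypoxia, was listed at 0 in the libraries from normoxia and at 56.9 to 82.8 FPKM in the 6 hypoxia libraries. VEGFA was at 40.5 and 45.3 FPKM in normoxia and at 124 to 186 FPKM in hypoxia. Of 8 Ewing sarcoma markers, 6 were called lower and 1 higher in control hypoxia, where 16.0% of all tested genes were called lower and 16.2% higher. Across genes, duplicates correlated at r = 0.954 to 0.963. Relative depth, as a share of the deepest library, differed between the groups of the main comparison. It was 76% and 55.7% in control normoxia and 100% and 95.9% in control hypoxia. The eKD1 libraries were at 82.6% and 61.1%, and the eKD2 libraries at 77.6% and 77.1%. The authors describe the duplicates as biological replicates, but neither they nor the labels state whether the duplicates came from separate cultures. P-values thus measure the spread between these libraries, part of which may be technical. In bulk RNA, fewer cells of a kind and less RNA per cell cannot be told apart.

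Promoter sequence was not used to choose the genes, and motif letters were searched in it. RefSeq windows (GRCh38.p14, from 250 bases before to 50 bases after each start) matched 36 of the 41 genes. Not matched were RAD54B, NBN, FANCI, XRCC5 and PRKDC. Letters typical of E2F sites (TTTCCCGC, TTTGGCGC, TTTCGCGC or TTTGCCGC, on either strand) were present in windows of 11 of the 36 genes, or 30.6%, against 3.99% of all 27305 genes with a window and 5.4% of protein-coding genes. The sites below are shown because, of the motifs searched, their share lay furthest above that of all genes as a ratio, and capitals mark the E2F letters or their reverse complement.
CLSPN: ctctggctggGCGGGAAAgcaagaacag
EXO1: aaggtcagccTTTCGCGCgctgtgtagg
FANCA: ctacaccgcgGCGGCAAAgccaaacgca
FANCC: tcgtcggaatTTTCCCGCgacgccgcgg
FANCD2: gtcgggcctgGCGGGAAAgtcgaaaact
MSH3: gtcaagTTTGGCGCGAAAttgtggccgc
MSH6: tccccccagaTTTCCCGCcagcaggagc
PMS2: gggaagtattTTTGCCGCcccgcccgga
TOPBP1: cgcgcggttgGCGCGAAAgtcggttccc
XRCC2: ggcgttggtgGCGGGAAAgttgagtctc
XRCC6: tcgcttccctGCGCCAAA
On GRCh38.p14 these stretches lie at chr1:35769966-35769993 (minus strand) for CLSPN, chr1:241848198-241848225 (plus) for EXO1, chr16:89816802-89816829 (minus) for FANCA, chr9:95317738-95317765 (minus) for FANCC and chr3:10026425-10026452 (plus) for FANCD2. Those of MSH3, MSH6 and PMS2 lie at chr5:80654539-80654566 (plus), chr2:47783138-47783165 (plus) and chr7:6009132-6009159 (minus). Those of TOPBP1, XRCC2 and XRCC6 lie at chr3:133661931-133661958 (minus), chr7:152676103-152676130 (minus) and chr22:41621327-41621344 (plus). FANCC holds another such match further upstream.

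The E-box letters CACGTG also contain the core letters ACGTG of a site for hypoxia-inducible factors. They were present in windows of 3 genes, or 8.33%, against 8.77% of all genes and 10.9% of protein-coding genes. They are shown because all 3 of these genes, BRCA2, RAD50 and FANCC, were called lower in hypoxia, as described below, with capitals for the E-box.
BRCA2: gtcacggcgtCACGTGgccagcgcgg
RAD50: cctagaggccCACGTGatccgcaggg
FANCC: gcactgctgaCACGTGtgcgcgcgcg
These lie at chr13:32315450-32315475 (plus strand), chr5:132556966-132556991 (plus) and chr9:95317679-95317704 (minus) on GRCh38.p14. Of the 10 genes with a window that were called lower in hypoxia, 3 held an E-box, 6 held the core ACGTG and 2 held E2F letters. Of the other 26 genes, 0 held an E-box, 6 held the core and 9 held E2F letters. The E-box was picked after the calls were seen, so its split between called and other genes follows from that choice. The 6 genes with the core include the 3 with an E-box. The 10 called genes had 17 windows and the other 26 had 38, and a link of any motif to the falls was not tested. Over all 36 genes the core was present in 33.3%, against 24.9% of all genes and 28.5% of protein-coding genes. Counted by window, since a gene can have several, the core was in 23.6%, near the 23.0% of protein-coding windows. CCAAT was present in 52.8% of the 36 genes, against 39.7% of all genes and 42.1% of protein-coding genes. The letters TTTGAA or TTCGAA of the cell cycle homology region were present in 8.33%, against 19.5% and 17.5%. Motifs were searched on both strands, and a match is a description of the letters, not a site shown to be bound.

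How low oxygen changed expression of these genes was asked first in the control cells. In hypoxia, 13 of the 41 genes fell and 1 rose (limma adjusted p under 0.05). The calls took in 31.7% of the genes on the lower side, where the background over all tested genes was 16.0%, and 2.44% on the higher side, where the background was 16.2%. The falls ranged from LIG4, ATRIP, RAD50, ATR and BRCA2, each at under 43% of its normoxia mean, to XRCC6 at 82.1%. The median log2 change of the 41 genes was -0.24, against 0.01 for all tested genes, and 32 of the 41 changes were below 0. By pathway the share called lower was 80.0% in end joining, 33.3% in end resection, 30.0% in homologous recombination, 28.6% in the checkpoint and 22.2% in the Fanconi pathway, each over at most 10 genes, and 0 of 3 mismatch repair genes were called lower. Both hypoxia libraries lay below both normoxia libraries in 24 genes (background 34.5%) and above them in 6 (background 35.9%). When the FPKM totals of all libraries were set equal, the median of all tested genes moved to -0.19 and that of the 41 genes to -0.47, and 20 of them (48.8%) were called lower and 0 higher, where the background under that rescaling was 25.7% lower and 10.2% higher.

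**Figure D1:**
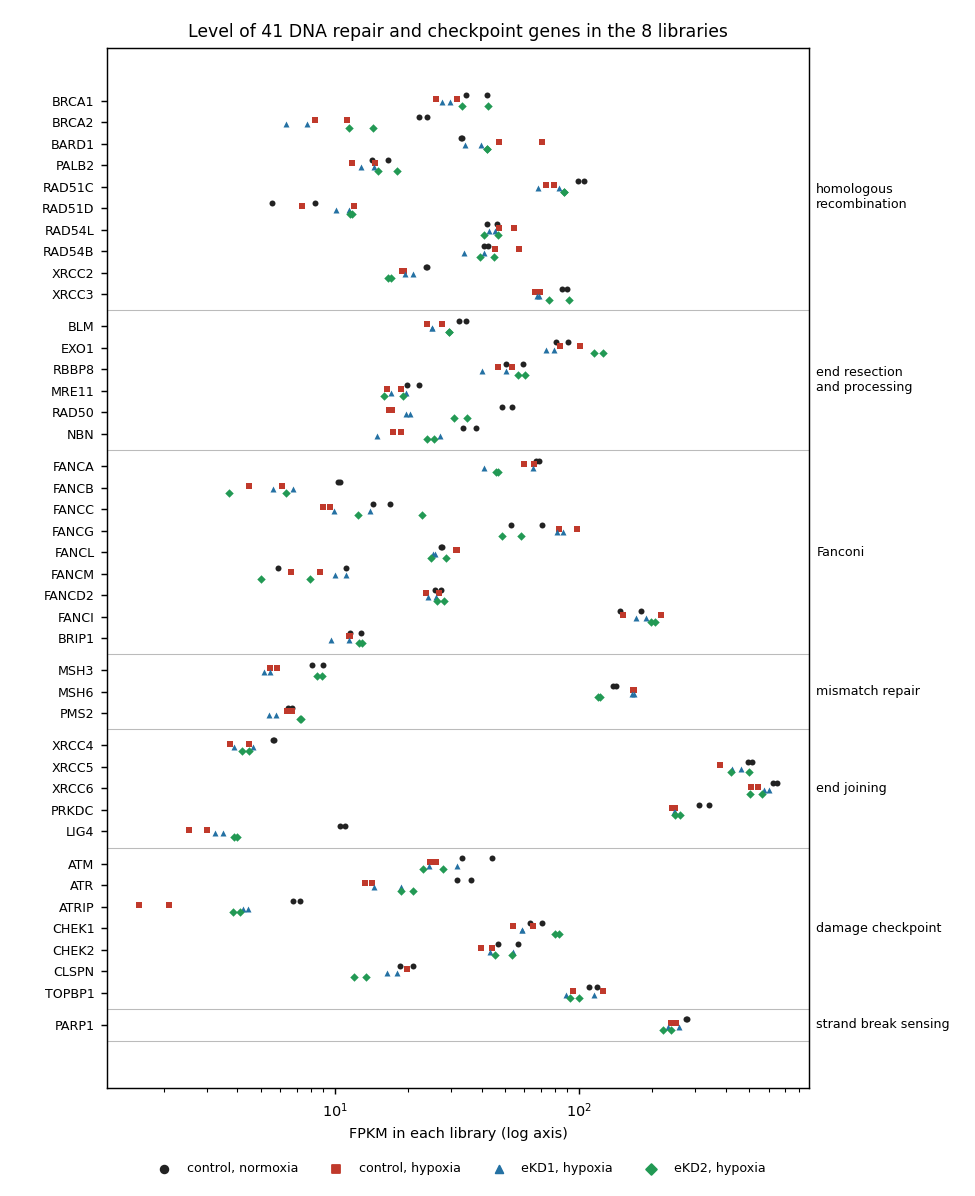
Level of each of the 41 genes in the 8 libraries, in FPKM on a log axis, grouped by pathway. Each symbol is 1 library, and the levels run from ATRIP, with 1.58 FPKM in 1 control hypoxia library, to XRCC6, with 652 FPKM in 1 normoxia library.

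In normoxia the genes spanned a wide range of levels. XRCC6 and XRCC5, which form the Ku ring on DNA ends, had the highest means at 640 ± 16.9 and 505 ± 12.3 FPKM (SD, n = 2). PRKDC, PARP1, FANCI, MSH6, TOPBP1 and RAD51C were also over 100 FPKM. XRCC4, at 5.6 FPKM, was the lowest, and 6 genes had a mean under 10 FPKM.

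Among the pathways of the 41 genes, end joining had the largest share of falls, 4 of 5 genes. This did not extend to 8 other end joining genes, of which 1 was called lower (12.5%, background 16.0%), with a median log2 change of -0.06. LIG4 (ENSG00000174405, GRCh37 chromosome 13, 108859787 to 108870716, minus strand), the ligase of the pathway, was at 11.1 and 10.5 FPKM in normoxia and at 3.01 and 2.53 FPKM in hypoxia. The groups were far apart, and the log2 change of -1.65 (limma SE 0.143, adjusted p = 0.00873) was the largest fall of all 41 genes. XRCC4, which holds the ligase, was at 5.58 and 5.63 FPKM in normoxia and at 3.71 and 4.44 FPKM in hypoxia, a log2 change of -0.38 that did not pass (limma adjusted p = 0.132). The level of LIG4 relative to XRCC4 was 1.99 and 1.86 in normoxia and 0.809 and 0.569 in hypoxia.

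The Ku subunits and the kinase they recruit fell by less. XRCC5 (chromosome 2, 216972187 to 217071026, plus strand) was at 514 and 497 FPKM in normoxia and at 380 and 381 FPKM in hypoxia, which is -0.41 on the log2 scale (limma SE 0.04, adjusted p = 0.00998). XRCC6 (chromosome 22, 42017167 to 42060052, plus strand) was at 628 and 652 FPKM in normoxia and at 506 and 544 FPKM in hypoxia, a change of -0.29 on the log2 scale (limma SE 0.0541, adjusted p = 0.0303). PRKDC (chromosome 8, 48685672 to 48872738, minus strand), the catalytic subunit of DNA-dependent protein kinase, was at 312 and 342 FPKM and at 242 and 249 FPKM, a change of -0.41 on the log2 scale (limma SE 0.063, adjusted p = 0.0202). For these 3 abundant genes the groups did not overlap, and each kept between 75% and 82.1% of its normoxia mean.

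In end resection, 2 of 6 genes fell, and both belong to the complex of MRE11, RAD50 and NBN that senses and trims DNA ends. RAD50 (ENSG00000113522, chromosome 5, 131891711 to 131982041, plus strand), its long coiled-coil subunit, was at 53.6 and 48.6 FPKM in normoxia and at 16.7 and 17.2 FPKM in hypoxia. The log2 change was -1.54 (limma SE 0.0883, adjusted p = 0.00685), the smallest adjusted p of the 41 genes. NBN (chromosome 8, 90936743 to 91015456, minus strand), which brings ATM to the complex, was at 37.8 and 33.5 FPKM in normoxia and at 18.7 and 17.4 FPKM in hypoxia, a change of -0.94 on the log2 scale (limma SE 0.103, adjusted p = 0.0116).

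MRE11, the nuclease of the complex, was at 22.1 and 19.8 FPKM in normoxia and at 18.7 and 16.5 FPKM in hypoxia, which did not pass (log2 change -0.24, limma adjusted p = 0.197). The 3 transcripts thus stood at 51.1, 35.7 and 20.9 FPKM on average in normoxia for RAD50, NBN and MRE11 and at 17, 18.1 and 17.6 FPKM in hypoxia. The level of RAD50 relative to MRE11 was 2.42 and 2.46 in normoxia and 0.894 and 1.05 in hypoxia. The RAD50 value is uncertain in part, since 76.9% of its exonic bases are shared with overlapping genes. Among them, the readthrough gene AC116366.3 was at 3.63 and 4.81 FPKM in normoxia and at 1.05 and 1.77 FPKM in hypoxia, a log2 change of -1.12 (limma adjusted p = 0.0396). The other resection genes BLM, EXO1 and RBBP8, a helicase, a nuclease and a nuclease cofactor, had log2 changes from -0.37 to 0.11 and were not called.

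**Figure D2:**
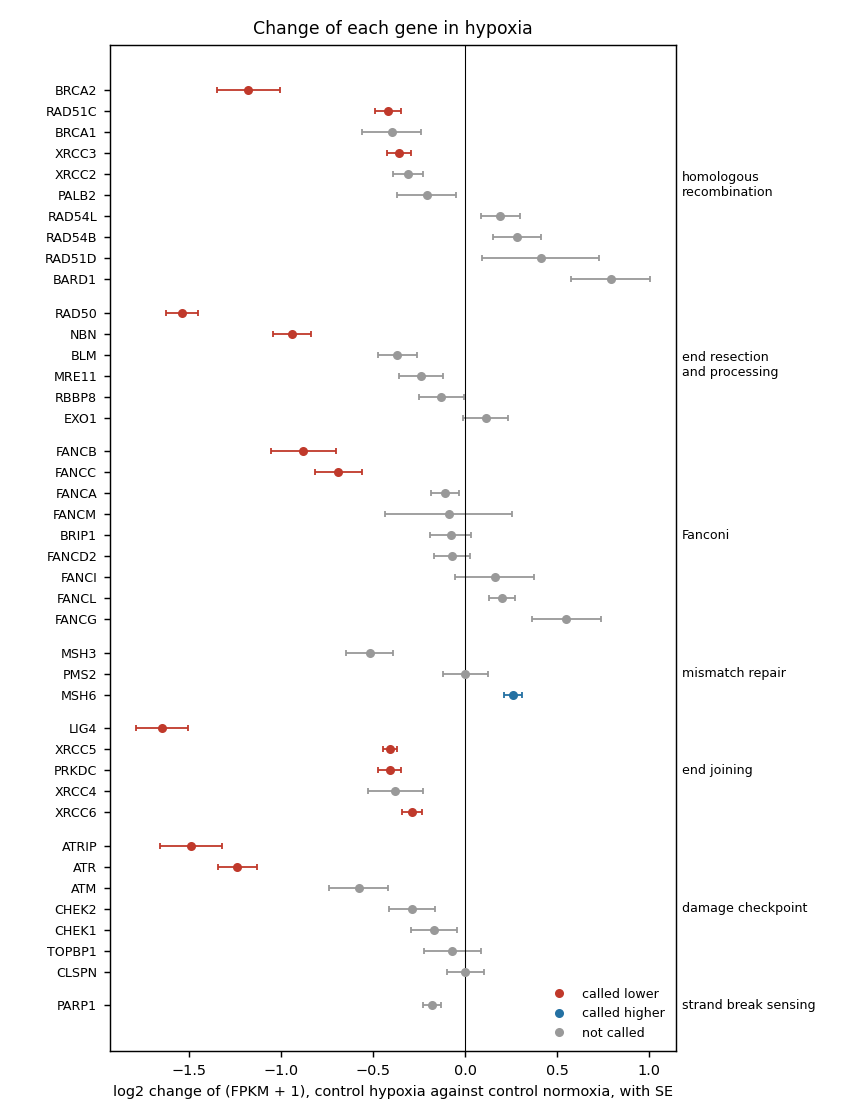
Log2 change of (FPKM + 1) in control hypoxia against control normoxia for the 41 genes by pathway, with the SE as bars and the call as colour. Calls on the lower side run from -1.65 for LIG4 to -0.29 for XRCC6, and MSH6 at 0.26 is the only call on the higher side.

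In homologous recombination, 3 of 10 genes fell, the strongest being BRCA2. BRCA2 (ENSG00000139618, chromosome 13, 32889223 to 32974405, plus strand), which mediates strand exchange on resected ends, was at 22.3 and 23.9 FPKM in normoxia and at 8.31 and 11.2 FPKM in hypoxia. The log2 change was -1.18 (limma SE 0.172, adjusted p = 0.0188), to 42.3% of the normoxia mean. BRCA1, which acts upstream of it, was at 34.5 and 42.2 FPKM in normoxia and at 26.0 and 31.9 FPKM in hypoxia. The BRCA1 groups did not overlap, but the log2 change of -0.40 (SE 0.16) did not pass (limma adjusted p = 0.141).

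BARD1, the partner of BRCA1 in a ubiquitin ligase, had the highest log2 change of the 41 genes, 0.79, which did not pass (limma adjusted p = 0.0641). It was at 33.0 and 33.3 FPKM in normoxia and at 70.9 and 47.3 FPKM in hypoxia, where the duplicates were widely spread. PALB2, the bridge between BRCA1 and BRCA2, was not called at a log2 change of -0.21 (limma adjusted p = 0.376).

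Among the genes whose products assist strand exchange, RAD51C and XRCC3 fell. RAD51C (chromosome 17, 56769934 to 56812972, plus strand) was at 99.4 and 105 FPKM in normoxia and at 79.4 and 73.4 FPKM in hypoxia, a change of -0.42 on the log2 scale (limma SE 0.0709, adjusted p = 0.0245). XRCC3 (chromosome 14, 104163946 to 104181841, minus strand) was at 85.7 and 89.9 FPKM in normoxia and at 69.7 and 66.3 FPKM in hypoxia, a change of -0.36 on the log2 scale (limma SE 0.0631, adjusted p = 0.0255). Of the exonic bases of XRCC3, 76.7% are shared with KLC1, whose log2 change was 0.06 (limma adjusted p = 0.426). XRCC2 (log2 change -0.31, limma adjusted p = 0.0588) and RAD51D (0.41, limma adjusted p = 0.371) were not called, nor were the motor proteins RAD54L (0.19) and RAD54B (0.28). RAD54B shares 66% of its exonic bases with FSBP, whose log2 change was 0.27 (limma adjusted p = 0.147). RAD54L shares 19.9% with LRRC41, which had a log2 change of -0.29 (limma adjusted p = 0.0905).

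In the damage checkpoint, 2 of 7 genes fell, and they encode the kinase ATR and the partner that brings it to single-stranded DNA. ATR (ENSG00000175054, chromosome 3, 142167849 to 142297575, minus strand) was at 36.1 and 31.8 FPKM in normoxia and at 13.3 and 14.3 FPKM in hypoxia. The log2 change was -1.24 (limma SE 0.107, adjusted p = 0.00873), to 40.7% of the normoxia mean. ATRIP (chromosome 3, 48488114 to 48509044, plus strand) was at 6.75 and 7.19 FPKM in normoxia and at 1.58 and 2.1 FPKM in hypoxia, a change of -1.49 on the log2 scale (limma SE 0.168, adjusted p = 0.012).

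ATRIP is a low gene, so the pseudocount understates its change, and its level in hypoxia was 26.4% of normoxia. It shares 26.7% of its exonic bases with TREX1, which was under 1 FPKM in both groups. ATM, the kinase for double-strand breaks, was at 33.4 and 44.1 FPKM in normoxia and at 24.7 and 26.0 FPKM in hypoxia, which did not pass (log2 change -0.58, limma adjusted p = 0.0641). The effector kinases were not called either.

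CHEK1, the kinase downstream of ATR, was at 63.1 and 70.7 FPKM in normoxia and at 54.0 and 65.3 FPKM in hypoxia (log2 change -0.17, limma adjusted p = 0.365). CHEK2, the kinase downstream of ATM, was at 56.7 and 46.9 FPKM and at 39.8 and 44.2 FPKM (log2 change -0.29, limma adjusted p = 0.158). The CHEK1 groups overlapped and the CHEK2 groups did not. TOPBP1, which activates ATR, and CLSPN, the adaptor between ATR and CHEK1, were at 96.1% and 99.7% of their normoxia means.

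In the Fanconi pathway, 2 of 9 genes fell, a share of 22.2% near the background of 16.0%. Both belong to the core complex that attaches ubiquitin to FANCD2 and FANCI, but this is not read as a result about the complex. Other genes of the complex went both ways. FANCL lay above normoxia in both hypoxia libraries, and of the other Fanconi genes given further on, FANCE was called higher and FANCF lower. FANCB (chromosome X, 14708510 to 14891377, minus strand) was at 10.5 and 10.3 FPKM in normoxia and at 4.44 and 6.06 FPKM in hypoxia, a change of -0.88 on the log2 scale (limma SE 0.178, adjusted p = 0.0347). FANCC (chromosome 9, 97861336 to 98189078, minus strand) was at 14.4 and 16.8 FPKM in normoxia and at 8.98 and 9.62 FPKM in hypoxia, a change of -0.69 on the log2 scale (limma SE 0.129, adjusted p = 0.0297).

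The targets of the core complex were not called. FANCD2 was at 27.2 and 25.8 FPKM in normoxia and at 23.8 and 26.7 FPKM in hypoxia, and FANCI was at 148 and 180 FPKM and at 217 and 152 FPKM. The groups overlapped for both genes. FANCA, FANCG, FANCL, FANCM and BRIP1 had log2 changes from -0.11 to 0.55, the highest being FANCG at 82.8 and 98.5 FPKM in hypoxia against 52.6 and 71.1 FPKM in normoxia (limma adjusted p = 0.0976).

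Mismatch repair held the call on the higher side. MSH6 (chromosome 2, 47922669 to 48037202, plus strand), which takes part in detecting single mismatches, was at 142 and 138 FPKM in normoxia and at 168 and 169 FPKM in hypoxia. The log2 change was 0.26 (limma SE 0.0469, adjusted p = 0.0264), but with equal FPKM totals it was 0.03 (limma adjusted p = 0.739). FBXO11, which shares exonic bases with MSH6, had a log2 change of -0.24 (limma adjusted p = 0.114). MSH3, which takes part in detecting loops, was at 8.94 and 8.11 FPKM in normoxia and at 5.8 and 5.45 FPKM in hypoxia and narrowly failed the test (log2 change -0.52, limma adjusted p = 0.0508).

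PMS2, which acts after a mismatch is detected, was at 99.7% of its normoxia mean. PARP1, the sensor of strand breaks, was at 276 and 278 FPKM in normoxia and at 251 and 238 FPKM in hypoxia, a log2 change of -0.18 that did not pass (limma adjusted p = 0.0622).

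**Figure D3:**
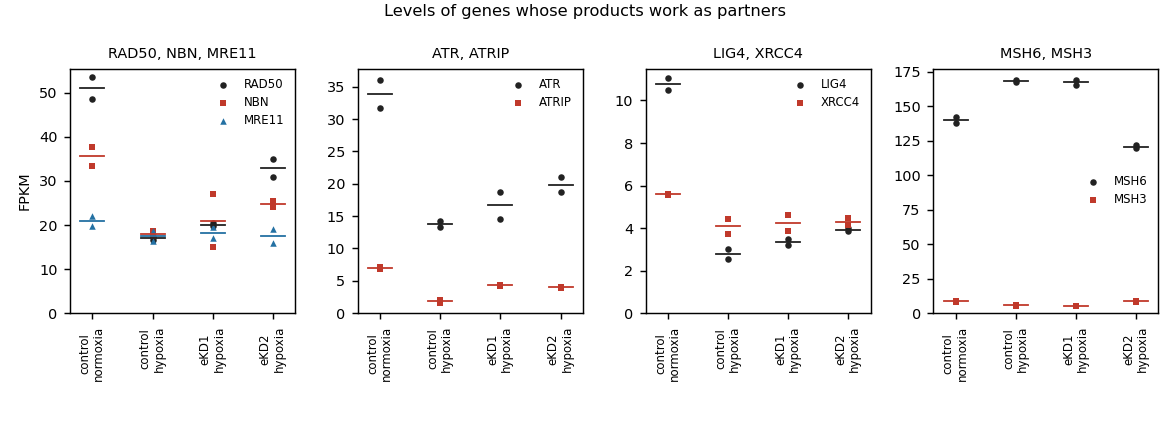
FPKM of genes whose products work as partners, in the 4 groups, with 1 symbol per library and a short line for the mean. RAD50 and NBN stood above MRE11 in normoxia and near it in control hypoxia, and LIG4 stood above XRCC4 in normoxia and below it in the hypoxic groups.

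Other genes of the same pathways, taken from a list of 67, changed in both directions in hypoxia, with 15 called lower and 11 higher and a median log2 change of -0.14. These shares of 22.4% lower and 16.4% higher stand beside backgrounds of 16.0% and 16.2%, which also apply to its pathway lists, each of at most 18 genes. In homologous recombination 4 of 18 fell and 3 rose, among them RMI2, a partner of BLM, with a log2 change of 1.54 (limma adjusted p = 0.00717), and MUS81, a structure-specific nuclease, with -0.99 (limma adjusted p = 0.0499). DNA2, a resection nuclease, fell by 0.80 on the log2 scale (limma adjusted p = 0.0199).

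Of the 8 other Fanconi genes 3 fell and 1 rose, with FANCF at -0.96 (limma adjusted p = 0.0192) and FANCE at 0.72 (limma adjusted p = 0.0141), both in the core complex, and UBE2T, its ubiquitin-conjugating enzyme, at -0.46 (limma adjusted p = 0.032). Of 4 other mismatch repair genes 2 fell, among them PMS1, and of 8 other end joining genes RIF1 fell by 0.74 on the log2 scale (limma adjusted p = 0.0109). Of 11 other checkpoint genes 2 fell and 3 rose, with ETAA1, another activator of ATR, at -1.02 (limma adjusted p = 0.0114), RNF8, a ubiquitin ligase at breaks, at 0.78 (limma adjusted p = 0.0111) and RAD9A, of the clamp that helps to activate ATR, at 0.46 (limma adjusted p = 0.0384). Of 18 base and nucleotide excision repair genes 3 fell and 4 rose, with the damage sensors XPC at -1.06 (limma adjusted p = 0.0231) and DDB2 at 0.69 (limma adjusted p = 0.0229), and the nuclease subunit ERCC4 at -0.62 (limma adjusted p = 0.0249).

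Cell cycle genes moved in the same comparison. Of 20 G2/M genes 16 fell and 0 rose, with a median log2 change of -0.62, the largest being CENPE at -2.13 (limma adjusted p = 0.0394), CCNB1 at -1.47 (limma adjusted p = 0.00641) and PLK1 at -1.31 (limma adjusted p = 0.00809). Of 30 S phase genes 7 fell and 7 rose, with a median of -0.03, led by GINS3 at -0.97 (limma adjusted p = 0.0119), GINS1 at -0.80 (limma adjusted p = 0.01) and CDT1 at 0.76 (limma adjusted p = 0.036). Called lower were 80.0% of the G2/M genes and 23.3% of the S phase genes, where the background was 16.0%. The S phase genes called higher were also 23.3%, beside a background of 16.2%. The median level of the G2/M list was 64.5 and 72.1 FPKM in normoxia and 55.6 and 47.0 FPKM in hypoxia. The part of these changes in the levels of the repair genes was not tested.

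Of 11 genes of the E2F and pocket protein family 6 fell and 2 rose, the largest changes being E2F4 at -1.20 (limma adjusted p = 0.0095), E2F3 at -0.99 (limma adjusted p = 0.00868) and E2F6 at -0.82 (limma adjusted p = 0.0114). These shares were 54.5% lower and 18.2% higher, where the background was 16.0% and 16.2%. Of 16 p53 target genes 2 fell and 6 rose, with CDKN1A at 1.72 (limma adjusted p = 0.009), GADD45A at 1.71 (limma adjusted p = 0.00809) and AEN at -1.34 (limma adjusted p = 0.00809). For the p53 targets the shares were 12.5% lower and 37.5% higher, beside the same backgrounds.

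**Figure D4:**
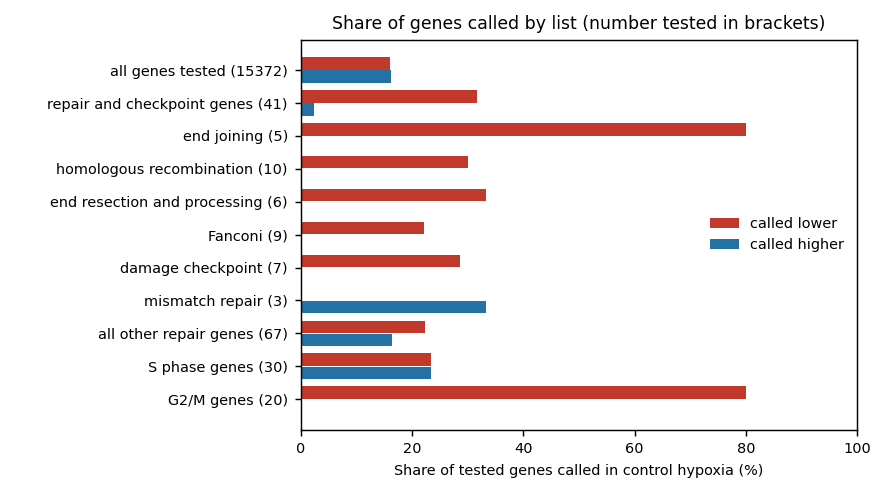
Share of tested genes called lower and higher in control hypoxia, in percent, for all tested genes, the 41 repair and checkpoint genes, their pathways, 67 other repair genes, S phase genes and G2/M genes. The 5 end joining genes of the set and the G2/M genes have the longest bars on the lower side, at 80.0% each. S phase genes have bars of equal length.

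Some of the genes start next to a gene on the other strand. With starts within 1000 bases upstream, 12 such neighbours were tested and 1 was called in hypoxia, where 32.2% of all tested genes were called in either direction. For 5 of the called genes a neighbour could be tested, and 0 of these neighbours were called. MCM4, a helicase subunit that starts 7 bases from PRKDC, was at 1232 and 1223 FPKM in normoxia and at 1177 and 1168 FPKM in hypoxia (log2 change -0.07, limma adjusted p = 0.187). ABHD13, 24 bases from LIG4, had a log2 change of -0.47 (limma adjusted p = 0.0578), and DESI1, 120 bases from XRCC6, had -0.65 (limma adjusted p = 0.0732). MOSPD2, next to FANCB, and ZFYVE21, next to XRCC3, had -0.04 and 0.12. The called neighbour was AIMP2, 125 bases from PMS2, with -0.70 (limma adjusted p = 0.013).

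The falls differed in how firmly they stood. RAD50, NBN, XRCC5, LIG4, ATR and ATRIP were called lower in every alternative that kept 2 libraries per group and could test them. BRCA2 lost its call where genes were not filtered for low values (limma adjusted p = 0.0655), and the other 6 lost it under 2 or 3 alternatives each. With 1 library left out of a fit that took its spread from the other 7, 6 to 8 genes were called lower, against 16 with all 8 libraries in that fit. LIG4, RAD50, ATR, ATRIP, BRCA2 and PRKDC were called whichever library was left out. XRCC5 and XRCC6 were each called in 1 of these 4 fits and NBN, RAD51C, XRCC3, FANCB and FANCC in 0, although each log2 change kept its direction.

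To see what repressing the LOXHD1 enhancer changed under low oxygen, each eKD group was set against the hypoxic control. In eKD1, 0 of the 41 genes were called by limma (background 0.0651%), and 4 had an unadjusted p under 0.05, 3 higher and 1 lower, a share of 9.76% where the background over all tested genes was 21.7%. DESeq2 and edgeR were not run, since the values are not counts. The 4 genes were ATRIP, XRCC5, XRCC6 and FANCL. ATRIP was at 4.21 and 4.42 FPKM in eKD1, against 1.58 and 2.1 FPKM in control hypoxia (log2 change 0.91, limma SE 0.171, adjusted p = 0.125). XRCC5 was at 465 and 427 FPKM (log2 change 0.23, limma adjusted p = 0.162), XRCC6 at 603 and 574 FPKM (0.16, limma adjusted p = 0.226) and FANCL, the ubiquitin ligase subunit of the core complex, at 25.2 and 25.8 FPKM (-0.30, limma adjusted p = 0.157). The median log2 change of the 41 genes was -0.01, and that of all tested genes 0.00.

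In eKD2, RAD50 rose and MSH6 fell, which is 4.88% of the 41 genes where the background was 9.61%. RAD50 was at 35.0 and 30.9 FPKM, above both control hypoxia libraries at 16.7 and 17.2 FPKM and below both normoxia libraries, with a log2 change of 0.92 (limma SE 0.0974, adjusted p = 0.0308). Its value is again uncertain in part, with 76.9% of its exonic bases shared. The overlapping AC116366.3 was at 2.73 and 3.6 FPKM in eKD2, against 1.05 and 1.77 FPKM in control hypoxia. MSH6 was at 122 and 120 FPKM, below both control hypoxia libraries at 168 and 169 FPKM, with a log2 change of -0.48 (limma SE 0.0435, adjusted p = 0.0287). Both calls were lost with a replicate block and without a variance trend, where the limma adjusted p reached 0.0925 for each, and that of RAD50 was lost without a filter as well. The 41 genes had a median log2 change of 0.13, against 0.05 for all tested genes.

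In eKD2, 13 genes had an unadjusted p under 0.05, the 2 called genes included. That share of 31.7% was near the background of 32.8%, so the values that follow are a description of single genes and not a result about the set. CHEK1 was at 82.9 and 80.0 FPKM, against 54.0 and 65.3 FPKM in control hypoxia (log2 change 0.45, limma adjusted p = 0.088). FANCG was at 58.3 and 48.3 FPKM, against 82.8 and 98.5 FPKM (log2 change -0.76, limma adjusted p = 0.0578), CLSPN at 12 and 13.5 FPKM against 19.8 and 19.7 FPKM (-0.60, limma adjusted p = 0.052) and FANCA at 46.9 and 45.8 FPKM against 65.8 and 60.0 FPKM (-0.43, limma adjusted p = 0.0514). MSH3 was at 8.44 and 8.89 FPKM, against 5.8 and 5.45 FPKM (log2 change 0.55, limma adjusted p = 0.0701). For each of these 5 genes the eKD2 libraries did not overlap with control hypoxia. That is common and adds no support, since the 5 genes were picked among those with a low p. Of the 15372 tested genes, both eKD2 libraries lay below both control hypoxia libraries in 4055 and above them in 5498.

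In the same comparison, 7 of 30 S phase genes fell and 0 rose (background 3.81% lower), and 5 of 20 G2/M genes rose and 0 fell (background 5.80% higher). Their part in the values of the repair genes was not tested. The S phase genes called lower took in MCM4, MCM5, PCNA, CDT1, ORC1, FEN1 and RRM2, and the G2/M genes called higher were CCNB1, CCNA2, PLK1, TPX2 and CDC20. Of the 67 other repair genes, 4 rose and 2 fell in eKD2, a share of 8.96% that was near the background of 9.61%. In eKD1 0 of them were called, and 17.9% had an unadjusted p under 0.05 (background 21.7%).

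Between eKD2 and eKD1, 0 of the 41 genes were called by limma (background 0.403%), and 9 had an unadjusted p under 0.05, a share of 22.0% where the background was 23.6%. No difference was thus shown for any of them, and the genes with the smallest p are given as values. The smallest adjusted p belonged to MSH6, whose eKD1 libraries were at 166 and 169 FPKM and whose eKD2 libraries were at 122 and 120 FPKM (log2 change -0.47, limma SE 0.0479, adjusted p = 0.0742). EXO1 followed, with 73.3 and 79.6 FPKM in eKD1, and in eKD2 116 and 126 FPKM (log2 change 0.66, limma SE 0.0799, adjusted p = 0.0779). CHEK1 was at 58.7 and 58.6 FPKM in eKD1 (log2 change 0.47, limma adjusted p = 0.0784) and RAD50 at 19.7 and 20.4 FPKM (log2 change 0.69, limma adjusted p = 0.0873).

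Both eKD groups were also compared with control cells in normoxia, to set their hypoxic levels beside those of the control. In eKD1, 6 genes were called lower (14.6%, background 4.75%) and 0 higher. They were BRCA2, RAD50, LIG4, ATR, PRKDC and XRCC3. In eKD2, 9 genes were called lower (22.0%, background 7.83%), namely BRCA2, RAD50, LIG4, ATR, PRKDC, NBN, ATRIP, XRCC2 and FANCA, and BARD1 and EXO1 were called higher (background 11.5%). The normoxia libraries are shared by these comparisons and by that of control hypoxia, so the values are given side by side.

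LIG4 was at 25.7% of its normoxia mean in control hypoxia, at 31.1% in eKD1 (log2 change -1.44, limma SE 0.141, adjusted p = 0.0286) and at 36.4% in eKD2 (-1.26, limma SE 0.129, adjusted p = 0.0201). Its FPKM were 3.49 and 3.22 for eKD1 and 3.98 and 3.87 for eKD2. BRCA2 was at 42.3%, 30.4% and 56.0%, with 7.71 and 6.31 FPKM in eKD1 (log2 change -1.59, limma adjusted p = 0.028) and 11.5 and 14.4 FPKM in eKD2 (-0.80, limma adjusted p = 0.0409). RAD50 was at 33.2%, 39.3% and 64.5% (log2 change -1.31, limma adjusted p = 0.0246 in eKD1 and -0.62, limma adjusted p = 0.0362 in eKD2).

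ATR was at 40.7%, 49.1% and 58.4%, with 18.8 and 14.6 FPKM in eKD1 (log2 change -0.99, limma adjusted p = 0.0467) and 18.7 and 21.0 FPKM in eKD2 (-0.75, limma adjusted p = 0.0324). PRKDC was level across the hypoxic groups, at 75%, 75.5% and 77.7% (log2 change -0.40, limma adjusted p = 0.044 in eKD1 and -0.36, limma adjusted p = 0.0419 in eKD2). Every library of these 5 genes in the 3 hypoxic groups lay below both normoxia libraries. The 5 genes were taken because they were called lower against those same normoxia libraries in each group, so this largely follows from the choice.

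ATRIP was at 26.4%, 61.9% and 57.1%, called in eKD2 (log2 change -0.68, limma adjusted p = 0.0486) and not in eKD1 (-0.58, limma adjusted p = 0.0838). NBN was at 50.6%, 58.9% and 69.3%, and its eKD1 duplicates were far apart at 15.0 and 27 FPKM, where it was not called (log2 change -0.79, limma adjusted p = 0.18), while in eKD2 it was at 25.5 and 24.0 FPKM (-0.51, limma adjusted p = 0.0466). XRCC3 was at 77.4%, 77.8% and 95.2%, called in eKD1 (log2 change -0.36, limma adjusted p = 0.0494) and overlapping with normoxia in eKD2.

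XRCC2, at 17.1 and 16.6 FPKM in eKD2 against 23.7 and 24.0 FPKM in normoxia, had a log2 change of -0.48 (limma adjusted p = 0.0409). FANCA, at 46.9 and 45.8 FPKM in eKD2 against 66.7 and 68.9 FPKM, had -0.54 (limma adjusted p = 0.0232). On the higher side, EXO1 was at 116 and 126 FPKM in eKD2 against 80.8 and 90.4 FPKM (log2 change 0.50, limma adjusted p = 0.0402) and BARD1 at 42.2 FPKM in both libraries against 33.0 and 33.3 FPKM (0.34, limma adjusted p = 0.0481). With a replicate block 0 genes were called in either of these comparisons.

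**Figure D5:**
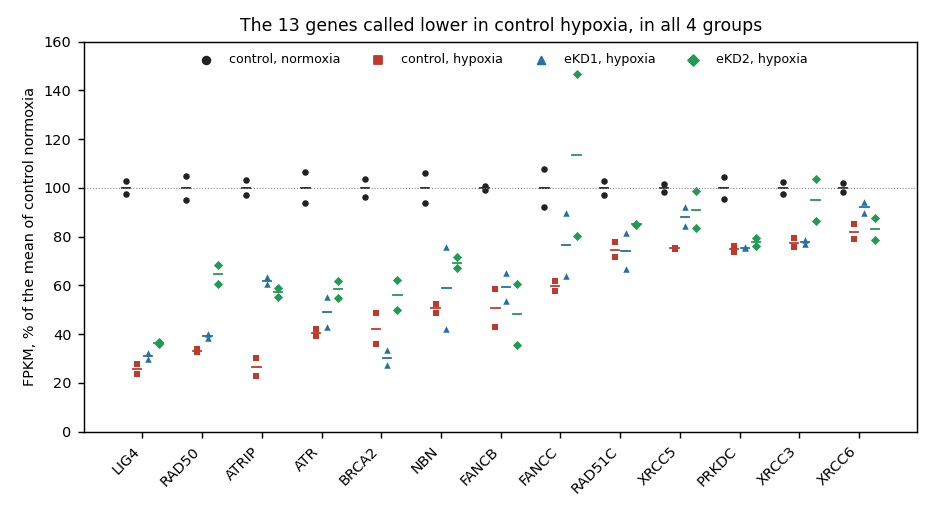
FPKM of the 13 genes called lower in control hypoxia, as a percentage of the control normoxia mean, with 1 symbol per library and short lines for group means. LIG4 stays at 25.7% to 36.4% in the 3 hypoxic groups, PRKDC at 75% to 77.7%, and the FANCC duplicates in eKD2 are widely spread.

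Of the genes without a call, BRCA1 was at 74.6% of its normoxia mean in eKD1 and at 99.2% in eKD2, ATM at 72.3% and 65.6%, CHEK2 at 93.9% and 95.5%, PARP1 at 88.2% and 83.4%, FANCD2 at 94.6% and 103% and FANCI at 110% and 123%. XRCC5 was at 88.2% and 91.1% and XRCC6 at 92% and 83.1%, and neither was called against normoxia. In all, 23 of the 41 genes (56.1%) had a mean below that of normoxia in each of the 3 hypoxic groups, as did 30.7% of all tested genes, with the same normoxia libraries in each comparison.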

How the data were processed

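Poly-A RNA was sequenced by the authors from 1 end, mapped to GRCh37 with STAR and turned into FPKM with cufflinks and cuffnorm. The deposited FPKM values form 1 table with a column per library. FPKM are not counts, so values were analysed as log2(FPKM + 1), which understates changes of low genes. Reads of overlapping genes are shared out by cufflinks, and 8 of the 41 genes share over 10% of their exonic bases (GENCODE version 44, GRCh37). Each comparison of 2 against 2 libraries was fitted with limma 3.58.1 in R 4.3.3 (variance trend) on the 15372 genes that reached 1 FPKM in 2 or more libraries. P-values are two-sided and Benjamini-Hochberg adjusted across the tested genes, and calls are at an adjusted p under 0.05. Absolute depth is unknown, and relative depth was read from the steps of the low values.

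Groups and replicate numbers came from the sample titles. The 41 genes, the other lists and the tests were chosen with earlier results of these data known. Libraries are given for the called genes and 13 fixed genes, and for some genes named after their values were seen (among them BARD1, MSH3, XRCC4, MRE11, FANCG, CLSPN and EXO1). From the other lists the 3 largest called changes were named, except for a result that is not reported here. The alternatives, described in the closing section, were another pseudocount and filters, 2 rescalings, a shared fit, a replicate block, no variance trend and leaving out each library. A shared fit with each library left out and protein-coding genes alone were added after seeing the data. Same-numbered libraries deviated together at r = -0.057 to 0.126, and the labels tie the numbers to no culture or day.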

Additional observations from a re-analysis of the deposited data

Results flagged for a closer look

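For 6 of the 41 genes, both eKD1 libraries lay on one side of both control hypoxia libraries and both eKD2 libraries on the other, a pattern found in 14.6% of these genes and in 7.5% of all tested genes. The direct test of eKD2 against eKD1 passed for 0 of them. BRCA2 was lower in eKD1 and higher in eKD2, with a log2 difference of 0.80 between eKD2 and eKD1 (limma adjusted p = 0.127). The same order held for EXO1 at 0.66 (limma adjusted p = 0.0779), MSH3 at 0.62 (limma adjusted p = 0.114), PMS2 at 0.34 (limma adjusted p = 0.232) and BRIP1 at 0.26 (limma adjusted p = 0.333). XRCC2 was higher in eKD1 and lower in eKD2, with a difference of -0.25 (limma adjusted p = 0.233). Both patterns share the control hypoxia libraries, and each guide was used in 1 group, so guide and culture cannot be told apart.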

How the results depend on the processing

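With 2 libraries per group, the median log2 change of the 41 genes in hypoxia stayed between -0.25 and -0.21 under the alternatives, except with equal FPKM totals, where it was -0.47, and leaving out a library gave -0.30 to -0.25. The number called lower in hypoxia, 13, was 8 without a filter, 20 with equal totals and 8 with the replicate block, and 0 to 8 with a library left out. Each 2 against 1 fit gave 0 calls, and these have few degrees of freedom. In eKD1 against control hypoxia the shared fit of all 8 libraries called 1 gene, and leaving out a library gave 0 to 0. In eKD2 against control hypoxia, where 2 were called, the count was 1 without a filter, 5 with a mean of at least 5 FPKM, 5 with median-of-ratios rescaling (4 lower, 1 higher), 4 with equal totals (1 lower, 3 higher), 10 with protein-coding genes alone, 7 in the shared fit, 0 with the replicate block and 0 without a variance trend, and 0 to 4 with a library left out. Between eKD2 and eKD1, where 0 were called, it was 4 with protein-coding genes alone, 6 in the shared fit and 0 to 1 with a library left out. Against normoxia, the 6 genes called lower in eKD1 became 0 without a filter, 10 with equal totals, 10 in the shared fit, 0 with the replicate block, 3 without a variance trend and 0 to 8 with a library left out. The 9 called lower in eKD2 became 3 without a filter, 14 with median-of-ratios rescaling, 15 with equal totals, 0 with the replicate block, 4 without a variance trend and 0 to 8 with a library left out. FANCI in hypoxia, at 0.16, reversed to -0.08 with equal totals, and leaving out a library gave -0.10 to 0.41, the lowest without replicate 1 of control hypoxia. FANCD2 in hypoxia, at -0.07, was at -0.30 at the lowest under the alternatives with 2 libraries per group. Leaving out a library gave -0.15 to 0.01 for FANCD2, the highest without the same library. Where a count moved, the cause was not tested, beyond the fewer samples or genes of a setting. The same-numbered libraries share only a number, so calls lost with the block are not read as weaker effects. Having 2 libraries per group limits every test, and without read totals the depth behind low genes such as ATRIP and LIG4 is unknown.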
